A study of Drosophila melanogaster with 2 samples.

Results

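The Hippo growth pathway was represented by 10 genes of *Drosophila melanogaster*, chosen by their known place in the pathway. No measured value was a criterion, but earlier results of these data were known when the genes were chosen. They were the cadherin genes *ft* and *ds*, the apical scaffold genes *Mer*, *ex* and *kibra*, the core kinase cassette genes *hpo*, *sav*, *wts* and *mats*, and the gene of the transcriptional effector, *yki*. These 10 were set beside all 13945 protein-coding genes on the main chromosome arms. The measurement was chromatin immunoprecipitation followed by sequencing (ChIP-seq) of the protein of *her* (*hermaphrodite*), a zinc-finger gene of the sex determination pathway. The flies were a transgenic line with a copy of *her* that carries GFP at its C-terminus. Chromatin came from whole embryos of mixed sex aged 0 to 24 hours, and the antibody was directed against GFP. The chromatin had been sonicated to fragments of 200 to 800 bp. The 2 biological replicates had the same genotype, age and antibody and formed 1 group, so the data held no contrast between conditions. A line without the tag was not analysed here. Whole embryos mix all cell types and stages of the collection, so a site used in few cells and a site used weakly in many cannot be told apart. The files hold regions of the genome and no expression values, so the tissue label could not be set against marker genes.

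The Hippo pathway restrains tissue growth. At the cell surface the cadherin Fat, engaged by its ligand Dachsous, and near the apical junctions Merlin, Expanded and Kibra activate a kinase cascade in which Hippo, with its scaffold Salvador, phosphorylates Warts, with its cofactor Mats. Warts phosphorylates the co-activator Yorkie, which is then held in the cytoplasm; unphosphorylated Yorkie enters the nucleus and, with the DNA-binding protein Scalloped, switches on genes for growth and survival. In the fly the pathway is best known for setting the size of imaginal discs, and its components are also present in the embryo.

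The authors deposited a thresholded list, cut by their test of reproducibility between replicates (irreproducible discovery rate, IDR). They also deposited relaxed lists of peaks and background for each replicate and for both pooled. A place in the thresholded list does not mean that a region was strong in each replicate. Of its regions, 73.9% were within the strongest regions of both replicates when each replicate's list was cut to the same length. Each relaxed list had 30000 regions, a fixed length, so a place in one is no call of binding. The signal of a region is the authors' own value, on a scale that the deposited notes do not state, and rank 1 is the strongest region of a list. A region belonged to a gene when its summit lay in the gene body or within 1 kb of one of its transcription start sites (TSSs), whichever gene had the nearest TSS. By this rule 16 thresholded regions belonged to the 10 genes, 0.407% of the thresholded list. The thresholded list had a lowest signal of 90.8 and a median of 138, and *her* itself held a thresholded summit with signal 116 at rank 2686. The sources used here give no read depth per replicate, and both replicates were set against the same control, per the deposited notes.

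The DNA under 6 of the summits is shown here because these are the strongest regions of *wts*, *Mer*, *ds* and *kibra* and the intronic regions of *kibra* and *ds* that held letters of a Scalloped site. All are read 5′ to 3′ on the minus strand of dm6, on which these 4 genes are transcribed, from the RefSeq Release 6 sequence. Capitals mark exact matches to 3 motifs on either strand. They are the DNA replication-related element (DRE) TATCGATA, bound by Dref and BEAF-32 at housekeeping promoters, the core GGAATG of the site of Scalloped and other TEAD factors, and the element GAGAG of the GAGA factor Trl. The first sequence, chr3R:30807054-30807146, lies upstream of *wts* and crosses the TSS of the divergent gene *dj-1beta*, so that its first 30 bases are in the first exon of *dj-1beta*. It holds 1 DRE, centred 10.5 bp from the summit and lying in that exon, 4 to 11 bp downstream of the *dj-1beta* TSS. The second, chr3R:14724263-14724383, lies just upstream of *kibra* and holds 2 DREs, centred 22.5 and 19.5 bp from the summit on opposite sides. The third, chr3R:14714245-14714365, is the strongest of the *kibra* introns, with a Scalloped core and a GAGA element. The fourth, chr2L:715516-715636, lies upstream of *ds*. The fifth, chr2L:701916-702036, is in a *ds* intron and holds a run of GAGA elements and a Scalloped core. The sixth, chrX:19693337-19693457, is in *Mer*, 43 to 163 bp downstream of the TSS.
wts, upstream, across the dj-1beta TSS: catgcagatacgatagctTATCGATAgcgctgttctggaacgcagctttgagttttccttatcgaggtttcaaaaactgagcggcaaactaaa
kibra, upstream: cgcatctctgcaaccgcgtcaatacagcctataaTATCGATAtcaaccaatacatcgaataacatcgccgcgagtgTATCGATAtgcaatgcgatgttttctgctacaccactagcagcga
kibra, intron: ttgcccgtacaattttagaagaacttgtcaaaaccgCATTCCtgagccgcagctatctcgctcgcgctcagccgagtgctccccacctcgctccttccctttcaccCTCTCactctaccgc
ds, upstream: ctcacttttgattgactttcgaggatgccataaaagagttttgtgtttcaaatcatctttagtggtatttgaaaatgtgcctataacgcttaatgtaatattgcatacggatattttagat
ds, intron: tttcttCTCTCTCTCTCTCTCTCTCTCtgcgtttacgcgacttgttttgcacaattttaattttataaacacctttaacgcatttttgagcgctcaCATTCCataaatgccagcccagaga
Mer, downstream of the TSS: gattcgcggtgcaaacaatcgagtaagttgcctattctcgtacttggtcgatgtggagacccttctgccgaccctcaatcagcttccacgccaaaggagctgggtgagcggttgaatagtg
In the fourth and sixth sequences none of the 3 motifs was matched, and their G and C content was 31.4% at *ds* and 52.9% at *Mer*. A match is a description of the letters and does not show that a factor was bound, and a window with no match says only that these letters are not in it. The upstream regions of *yki* (262) and *hpo* (245) were stronger than that of *kibra* (229.7) and are not shown. They held none of the 3 motifs within 50 bp of the summit.

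In the thresholded list, 8 of the 10 Hippo genes had a summit no farther than 1 kb from a TSS, against 23.3% of all protein-coding genes (3254 of 13945). These were *ds*, *Mer*, *ex*, *kibra*, *hpo*, *wts*, *mats* and *yki*, so at least 1 gene of every level of the pathway was among them, and *ft* and *sav* were not. With summits in the gene body counted too, the same 8 genes were called, against 25.2% of protein-coding genes. In the stronger-ranked part of the thresholded list 6 of the 10 remained, *ds*, *Mer*, *kibra*, *hpo*, *wts* and *yki*, against 12.8% of protein-coding genes. When a summit was counted only for the gene with the nearest TSS, 6 of the 10 were called, against 16.9%, and *wts* and *yki* were no longer among them. The effector level, represented by *yki* alone, then had no called gene. In the pooled relaxed list 9 of the 10 had a summit within 1 kb, all but *sav*, against 62.1%, a background so high that this last count says little. The strongest signal within 1 kb of the 8 called Hippo genes had a median of 251 and a range of 106 to 2056, against a median of 146 over the 3254 called protein-coding genes. With 1 group of 2 replicates and a gene list chosen by hand, these shares are descriptions and carry no test.

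**Figure D1:**
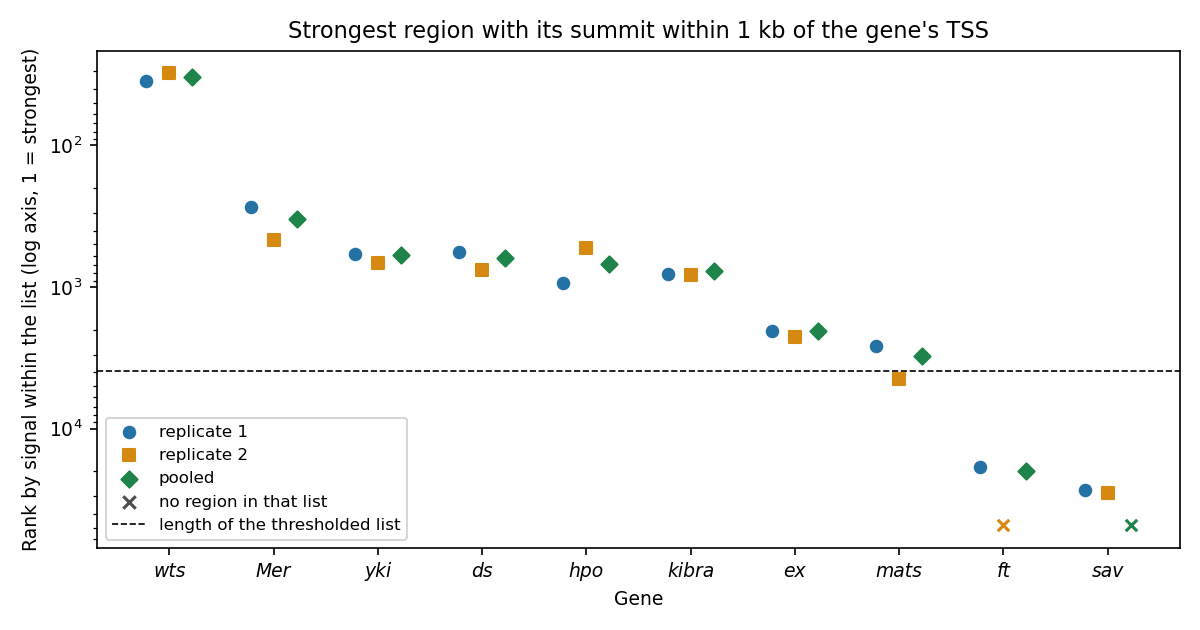
Rank of the strongest region with its summit at most 1 kb from a TSS, for each Hippo gene (y axis, log scale, rank 1 at the top) in the lists of replicate 1, replicate 2 and both pooled, with genes ordered by pooled rank on the x axis; crosses mark a list with no such region and the dashed line is the length of the thresholded list. *wts*, by a summit nearer to the TSS of *dj-1beta*, stands at ranks 31 to 35 in the 3 lists. Of the others, 7 genes lie between, and *ft* and *sav* lie far below the dashed line. Among the 7, *mats* falls just below the line in replicate 2, at rank 4456.

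The cadherin pair at the cell surface differed. *ds* (FBgn0284247, chromosome arm 2L, 640013 to 714983, minus strand) encodes Dachsous, the ligand cadherin. Its upstream region, with the summit 593 bp before the TSS, had a thresholded signal of 256 at rank 621. In the replicates this region had a signal of 147 at rank 569 in replicate 1 and 110.0 at rank 755 in replicate 2. A second *ds* region in an intron, 13007 bp downstream of the TSS, had a thresholded signal of 123 at rank 2403, with 73.1 in replicate 1 and 48.0 in replicate 2. Both *ds* regions were therefore present in both replicates, the upstream one at about the same high rank in each.

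*ft* (FBgn0001075, 2L, 4198404 to 4221796, minus strand) encodes Fat, the receptor cadherin, and had no thresholded region in its 23.4 kb or within 1 kb of its TSS. Its best pooled region had its summit in the 5′ UTR 66 bp downstream of the TSS, with a signal of 29.6 at rank 19834. In replicate 1 the nearest such region lay 22 bp downstream with a signal of 18.5 at rank 18588, and replicate 2 listed none at *ft*. The pooled value lay below the median of the pooled list, 36.2, so *ft* was not distinguishable from the listed background.

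The 3 apical scaffold genes all had a promoter region, and they differed in what lay in the rest of the gene. *Mer* (FBgn0086384, X, 19689697 to 19693500, minus strand) encodes Merlin, a FERM-domain protein, and its summit lay in an intron 103 bp downstream of the TSS. The thresholded signal was 357 at rank 330, the second strongest of the 16 regions, with 218 at rank 270 in replicate 1 and 139.9 at rank 462 in replicate 2. *ex* (FBgn0004583, 2L, 431227 to 448701, plus strand) encodes Expanded, a second FERM-domain protein and itself a transcriptional target of Yorkie. Its promoter region, 194 bp upstream of the TSS, was weak at 135 and rank 2034, with 75.8 in replicate 1 and 60.8 in replicate 2. At *ex* the intronic region was the stronger: 10888 bp downstream of the TSS, the signal was 211 at rank 906, with 109 in replicate 1 and 99.7 in replicate 2. That order, intron above promoter, held in both replicates and was not seen at *ds*, *kibra* or *wts*, the other Hippo genes with more than 1 thresholded region.

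*kibra* (FBgn0262127, 3R, 14697689 to 14724261, minus strand) encodes a WW-domain partner of Merlin and Expanded and held 4 thresholded regions. The promoter region, 62 bp upstream of the TSS and holding the pair of DREs shown in the *kibra* upstream sequence, had a signal of 229.7 at rank 776, with 122 in replicate 1 and 106 in replicate 2. The 3 others were intronic, 2091, 9956 and 17148 bp downstream of the TSS, with thresholded signals of 143, 157 and 143. In replicate 1 these 3 had signals of 89.2, 85.7 and 88.3, and in replicate 2 they had 58.7, 72.0 and 56.5. The introns of *kibra* thus held sites of like strength spread over much of the gene, all weaker than its promoter in both replicates.

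In the core cassette, *wts* stood apart by signal. *wts* (FBgn0011739, 3R, 30789625 to 30806619, minus strand) encodes the kinase that phosphorylates Yorkie. The region upstream of *wts*, from 30806737 to 30807378, had a thresholded signal of 2056 at rank 33, with 905 at rank 35 in replicate 1 and 1159 at rank 31 in replicate 2. Its summit lay 495 bp upstream of the *wts* TSS, but 3 bp upstream of the TSS of *dj-1beta* (FBgn0039802, 30807117 to 30807978, plus strand), which encodes a protein of protection against oxidative stress. The 2 genes are divergent with TSSs 498 bp apart, and a ChIP region cannot say which of them it belongs to. The regions at the neighbouring ranks had the nearest TSS of *Bre1* (signal 2114, rank 31), *CG14100* (2068, rank 32), *CG13398* (2001, rank 34) and *Sema2a* (1973, rank 35), all with the summit within 100 bp of that TSS.

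*wts* also held 3 weaker thresholded regions inside the gene. The intronic region 9706 bp downstream of the TSS had a signal of 163 at rank 1460. It had 81.5 at rank 1755 in replicate 1 and 82.4 at rank 1290 in replicate 2. The region in the 3′ UTR, 16987 bp downstream at the very end of the gene, had 102 at rank 3279, with 63.7 in replicate 1 and 39.5 in replicate 2; it was the weakest of the 16. The third, in an intron 3627 bp downstream, had 115 at rank 2719, with 85.4 in replicate 1 and 14.8 at rank 23095 in replicate 2. This last region ranked far lower in replicate 2 than in replicate 1, where it stood at rank 1622. The 14.8 belongs to the replicate 2 region with the nearest summit, 71 bp from the thresholded one. A replicate 2 region 129 bp from the thresholded summit was stronger, at 30.4 and rank 7127, and even so only 0.356 times the replicate 1 value.

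The other 3 genes of the cassette ranged from a clear promoter region to none. *hpo* (FBgn0261456, 2R, 19493996 to 19496856, minus strand) encodes the upstream kinase Hippo, and its summit lay 40 bp upstream of the TSS. Its thresholded signal was 245 at rank 683, with 113 at rank 943 in replicate 1 and 131 at rank 531 in replicate 2. *mats* (FBgn0038965, 3R, 22421161 to 22423302, plus strand) encodes the Mob-family cofactor of Warts, and its thresholded summit lay in an intron 478 bp downstream of the nearer of its 2 TSSs. The signal was 106 at rank 3088, with 66.2 at rank 2597 in replicate 1 and 40.6 at rank 4456 in replicate 2, which lay beyond the length of the thresholded list. A second *mats* summit in the pooled list, 15 bp upstream of a TSS, had 50.8 at rank 9216 and did not pass the threshold. That promoter is shared with the divergent *Nop56* (FBgn0038964, minus strand), a gene of ribosomal RNA processing, whose TSS lies 93 bp away.

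*sav* (FBgn0053193, 3R, 23058609 to 23061304, minus strand) encodes the scaffold that joins Hippo to Warts, and it had no region in the thresholded or the pooled list. Replicate 1 listed a summit 345 bp upstream of the TSS with a signal of 13.8 at rank 26912, nearer to the TSS of *Ublcp1*, and one 2010 bp downstream with 15.6 at rank 23236, nearer to that of *Ctns*. Replicate 2 listed a different summit, 117 bp downstream, with 12.7 at rank 28284. The replicates thus shared no *sav* site, and all 3 signals lay close to the lowest of their lists, 12.5 in replicate 1 and 12.1 in replicate 2.

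*yki* (FBgn0034970, 2R, 24065975 to 24068485, minus strand) encodes the co-activator Yorkie. Its thresholded region had a signal of 262 at rank 593, with 146 at rank 580 in replicate 1 and 117 at rank 676 in replicate 2. The summit lay 575 bp upstream of the *yki* TSS but inside *Gpat4* (FBgn0034971, 24068757 to 24073552, plus strand), an enzyme gene of glycerolipid synthesis, in its 5′ UTR. *Gpat4* is divergent from *yki* and has 2 annotated TSSs, 272 and 565 bp from that of *yki*. The summit lay 303 bp downstream of the first and 10 bp downstream of the second, so, as at *wts*, the region cannot be given to 1 gene and lies nearer the neighbour. A weaker pooled region 516 bp downstream of the *yki* TSS, inside the gene, had 54.7 at rank 8327 and did not pass the threshold.

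**Figure D2:**
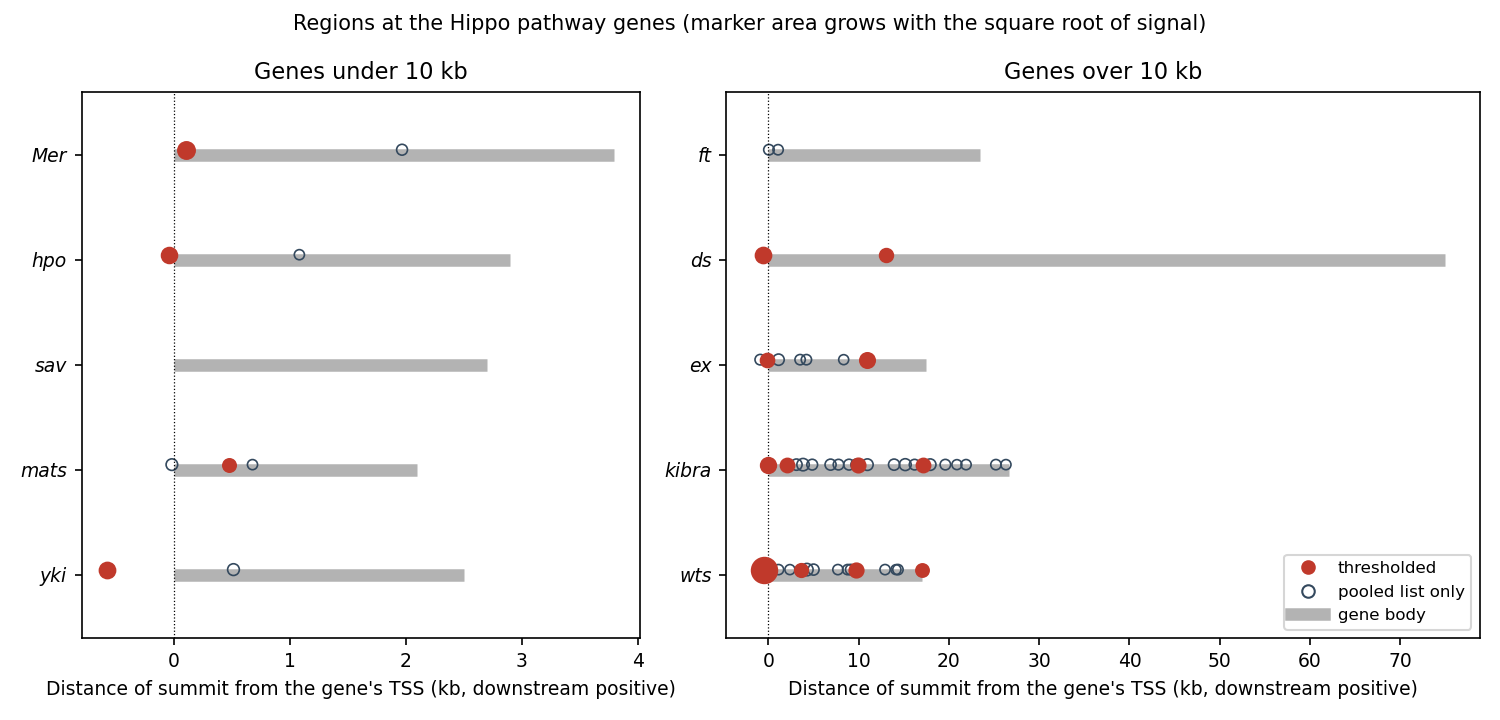
Summits at the Hippo genes by distance from the gene's TSS (x axis, kb, downstream positive), with genes under 10 kb at left and genes over 10 kb at right; grey bars are gene bodies, filled circles are thresholded regions and open circles are regions of the pooled list only, with marker area growing with the square root of signal. The introns of *kibra* and *wts* are dotted with weak regions, the long body of *ds* holds 1 summit, and the strongest summit of *wts* and the thresholded summit of *yki* lie before the gene.

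Of the 16 thresholded regions, 8 lay within 1 kb of the gene's own TSS and 8 lay farther away. The 8 near the TSS had signals of 106 to 2056, with a median of 251, and the 8 distant ones had 102 to 211, with a median of 143. Of the distant ones 7 were in introns and 1 in a 3′ UTR, and all belonged to the long genes *ds*, *ex*, *kibra* and *wts*. For 5 of them another annotated TSS was nearer than the gene's own, always more than 2 kb away. These were the long noncoding RNAs *lncRNA:CR44988* for *ds* and *lncRNA:CR43717* for *ex*, and the protease gene *Meltrin* for *kibra*. Within *wts* they were *mir-1013* and an unnamed short RNA annotated inside *mir-1013* on the same strand. *kibra* and *wts* had 4 thresholded regions each, a number reached by 1.03% of all protein-coding genes; the number 4 was chosen after these values were seen, and longer genes have more room for summits.

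The pooled relaxed list held 55 regions at the 10 genes, of which 39 had not passed the threshold. These 39 had signals of 21.2 to 72.6 with a median of 29.6, and 27 of them were at *kibra* and *wts*. The weakest thresholded region, at the 3′ end of *wts* with 102, and the strongest outside the threshold, in a *wts* intron 4270 bp downstream of the TSS with 72.6 at rank 5489, stood either side of the authors' limit. In the gene body alone *kibra* held 20 pooled summits and *wts* 13, which is 7.53 and 7.65 per 10 kb. The other long genes were sparser, with 2.86 per 10 kb at *ex*, 0.855 at *ft* and 0.133 at *ds*. Protein-coding genes of 15 to 30 kb, a class chosen after the values were seen that takes in *wts*, *ex*, *ft* and *kibra*, had a median of 5 pooled summits in the body (quartiles 1 and 10), and 60.6% of the 696 had no thresholded one. *kibra* and *wts* lay above that upper quartile, *ex* at the median with 5, and *ft* below it with 2. Among 224 genes of 50 to 100 kb the median was 8 (quartiles 1 and 20.2), so *ds*, with 1, stood at the lower quartile of its length class.

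**Figure D3:**
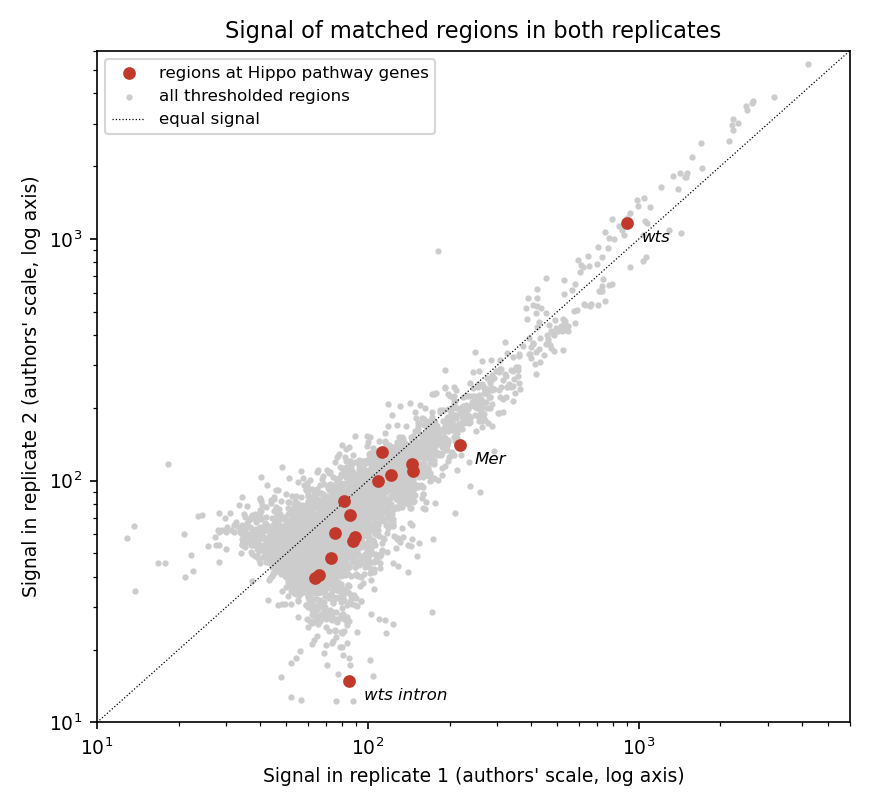
Signal of each thresholded region in replicate 1 (x axis) and in the replicate 2 region with the nearest summit within 200 bp (y axis), both on log scales of the authors' signal; filled circles are the 16 regions at Hippo genes, grey points all thresholded regions found in both replicates, and the dotted line is equal signal. The region upstream of *wts*, with its summit nearest to *dj-1beta*, lies above the line at the strong end. The *wts* intron at 85.4 and 14.8 lies far below the line. A stronger replicate 2 region within 200 bp of it, at 30.4, had a more distant summit and is not the one plotted.

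All 16 regions at the Hippo genes had a summit within 200 bp in both replicates. So did 3914 of all thresholded regions, nearly the whole list, so this count does not set the Hippo regions apart. The median gap between the replicates' summits was 15 bp at the 16 regions, with a range of 0 to 71 bp. Over the 3914 thresholded regions found in both, the median was 22 bp. Of the 16, 13 (81.2%) were within the strongest regions of both replicates when each list was cut to the length of the thresholded one, against 73.9% of all thresholded regions. The ratio of signal in replicate 2 to that in replicate 1 had a median of 0.774 at the Hippo genes and a range of 0.173 to 1.28, against a median of 0.855 and quartiles of 0.709 and 1.04 over all 3914. Replicate 1 was higher at 13 of the 16 regions (81.2%), against 71.1% of all, so replicate 1 was the higher at most regions of both sets. Replicate 2 was higher at the region upstream of *wts*, with its summit nearest to *dj-1beta*, with a ratio of 1.28. It was also higher at the *hpo* promoter with 1.17 and the *wts* intron 9706 bp downstream with 1.01. The ratio at the region upstream of *wts* was close to that of other regions of high rank. Replicate 2 was higher at 44 of the 50 strongest thresholded regions, with a median ratio of 1.26. The number 50 was chosen after the values were seen. At the low end, 5 of the 3914 regions had a ratio as low as the 0.173 of the *wts* intron 3627 bp downstream, itself included. That value depends on taking the nearest replicate 2 summit. With the stronger replicate 2 region 129 bp away, the ratio was 0.356.

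Within 50 bp of the summit, the full DRE was matched at 2 of the 16 regions (12.5%), against 3.64% of all thresholded regions and 5.21% of 19250 promoter windows of the same length. The 2 were the *wts* and *kibra* upstream regions whose sequences are shown. The shorter DRE core ATCGAT was matched at the same 2 regions (12.5%), against 8.78% of all thresholded regions and 12.8% of promoter windows, so by the core the share was close to that of promoter windows. One more DRE lay 92.5 bp from the *hpo* summit, outside the window. The Scalloped core GGAATG was matched at 3 of the 16 (18.8%), against 3.46% of all thresholded regions and 3.90% of promoter windows. These 3 were the *ds* intron, the *kibra* intron 9956 bp downstream and the 3′ end of *wts*, all far from a Hippo gene's TSS. The GAGA element was matched at 2 (12.5%), against 15.7% of all thresholded regions and 15.4% of promoter windows, with 7 overlapping matches in the *ds* intron. The early embryonic activator Zelda's site CAGGTAG was matched once, 8 bp from the summit of the *kibra* intron 17148 bp downstream, against 0.585% of all thresholded regions and 0.665% of promoter windows. The TATA box TATAAA was matched at 2 (12.5%), against 10.3% of all thresholded regions and 18.2% of promoter windows. The other 4 motifs were matched at none of the 16. Over all thresholded regions their shares were 6.51% for CAGCTG, 2.52% for the Motif 1 core GGTCACAC, 2.32% for CGGACG and 1.48% for CACGTG. Both strands were searched, 10 motifs were counted, and the counts at 16 regions are too small to rank the motifs.

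Around the 10 genes, 56 other genes of the network, also chosen with earlier results of these data known, were counted in 5 groups by role. Of these, 31 (55.4%) were called by the same 1 kb rule, against 23.3% of protein-coding genes, and for 26 of the 31 the gene's own TSS was the nearest. The median signal of the 31 was 144, close to the 146 of all called protein-coding genes. In the Fat branch 3 of 8 were called, namely the palmitoyltransferase gene *app* (163), the casein kinase gene *dco* (115) and the adaptor gene *Dlish* (96.9). With *ft* itself not called, *fj* and *dachs*, which modify and transmit Fat signalling, were not called either. Of the apical and junction genes 10 of 16 were called, led by the polarity genes *par-6* (259, nearer to *CG8188*), *aPKC* (216) and *dlg1* (214).

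Among the regulators of the core kinases 6 of 12 were called. The strongest was *msn*, a Ste20-family kinase gene whose product can phosphorylate Warts. Its summit, 62 bp from the TSS, had a signal of 2358 at rank 27. Thus *msn* and *wts* were the only genes of the 66 (the 10 and the 56) with a signal above 1000. The *wts* summit was nearer to *dj-1beta*. *Sik3*, a kinase gene that acts on Salvador, had 244, and *mts*, the catalytic subunit gene of protein phosphatase 2A, had 215 at a summit nearer to *Rack1*. Of the Yorkie partners 7 of 11 were called, led by *14-3-3zeta* (315), whose product holds phosphorylated Yorkie, the cofactor gene *mask* (184) and *Tgi* (121), which competes with Yorkie for Scalloped. *sd*, the gene of Scalloped, was not called, although it had 11 pooled summits within 1 kb of its TSSs. Of the Yorkie targets 5 of 9 were called, led by the survival gene *Diap1* (244), the growth microRNA *mir-ban* (165, nearer to another TSS) and the glypican gene *dlp* (144). The growth and cell cycle genes *CycE*, *Myc* and *E2f1* were not called.

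**Figure D4:**
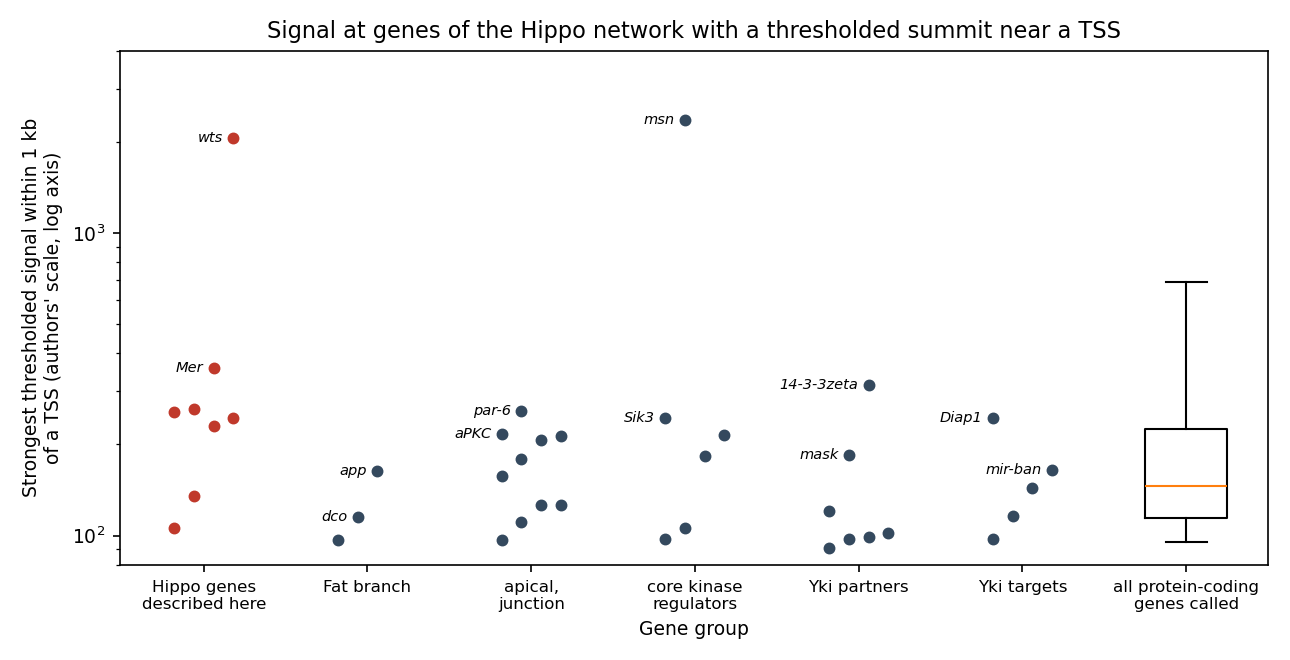
Strongest thresholded signal within 1 kb of a TSS (y axis, log scale, authors' units) for each called gene of the Hippo pathway and of 5 groups of other network genes, with the 2 strongest of each group named; the box at right gives the quartiles and median of all 3254 called protein-coding genes, with whiskers at percentiles 5 and 95. *wts* at 2056, with its summit nearer to *dj-1beta*, and *msn* at 2358 stand above all other points. The other called Hippo genes lie between 106 and 357.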

How the data were processed

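Samples were grouped by their labels; all fell into 1 group. The authors deposited 4 region lists on dm6 per the file headers and notes: thresholded (3930 regions), pooled relaxed and 2 per-replicate relaxed lists (30000 each). The aligner and peak caller used are not given in those sources. The signal is the authors' deposited value on an unstated scale. The deposited −log10 q-value was 4.13 for every thresholded region, so regions were ranked by signal. All 3930 thresholded regions were in the pooled list. The dm3 lists were not used.

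Genes and TSSs came from Ensembl release 115 and sequence from RefSeq Release 6, both dm6; member spans were identical in both (10 of 10). Summits were assigned with Python 3.11.15 and numpy 2.4.6, figures drawn with matplotlib 3.10.9, and the assignment and motif search were checked on simulated data. Percentages are over 13945 protein-coding genes. Motif windows span 101 bp; promoter windows were centred 50 bp upstream of a TSS. Replicate regions were matched by summits within 200 bp.

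The genes and lists were chosen with earlier results of these data known. The text names all 10 genes, *her*, at most 3 genes with the strongest signal per network group, neighbours with a nearer TSS, and the genes 2 ranks either side of *wts*; others were named after their values were seen. Alternatives were the 1965 strongest thresholded regions, the 7860 strongest pooled regions, each replicate alone (its 3930 strongest), other distances, intervals for summits, coding TSSs and the nearest TSS only. With 1 group no test was made.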

Additional observations from a re-analysis of the deposited data

How the results depend on the processing

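With summits within 200 bp of a TSS, 4 of the 10 Hippo genes were called (*Mer*, *ex*, *kibra* and *hpo*), against 16.2% of protein-coding genes. Under the other settings 6 to 8 were called, against 12.8% to 37.9% of protein-coding genes. With the gene body counted 7 to 8 were called, against 14.6% to 39.7%. The other network genes called were 16 of 56 in the stronger-ranked part of the thresholded list, against 12.8% of protein-coding genes. Otherwise 24 to 44 of the 56 were called, against 16.2% of protein-coding genes for the 24 and 37.9% for the 44. Without replicate 1, where *mats* was lost, 7 Hippo genes were called, against 23.3% of protein-coding genes. Without replicate 2 there were 8, against 22.9%. With the gene body counted the numbers were likewise 7 and 8, against 25.4% and 24.8%. Of the other network genes 30 were called without replicate 1, against 23.3%, and 28 without replicate 2, against 22.9%. Any of the 10 motifs was matched within 50 bp of the summit at 6 of 16 regions, against 43.6% of all thresholded regions. Within 25 bp the count was 5, against 24.4%, and within 100 bp it was 12, against 68.9%. The Hippo share was thus below that of all thresholded regions at 50 bp and above it at 25 and 100 bp. All 16 regions were matched in both replicates at 100 and 500 bp. No share over all thresholded regions is given for these 2 distances, so the counts do not set the Hippo regions apart. At 200 bp nearly the whole thresholded list was matched in both replicates, 3914 regions. No paired analysis was possible because all samples form 1 group.

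With no read depth in these sources, no interval was put on a signal, and signals of different lists share no stated scale. Both replicates were set against 1 control, and without an untagged line specific and unspecific recovery cannot be told apart.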

Other observations

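Several other network genes also held many sites. Of the 56, 6 (10.7%) had 4 or more thresholded summits in the gene body or within 1 kb of a TSS, against 1.03% of all protein-coding genes. They were the adhesion gene *ed*, the polarity gene *scrib*, the kinase genes *msn* and *Hipk*, the homeobox gene *hth* and the glypican gene *dlp*. Of all 13945 protein-coding genes, 3254 were called at a TSS and 3512 when the gene body was counted too. Among the 25 other network genes not called at a TSS, 3 had a thresholded summit inside the gene only, namely *Cka*, *14-3-3epsilon* and *Myc*. These genes and the number 4 were chosen after the values were seen, and gene length was not accounted for.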
